A study of Mus musculus with 6 samples.

Results

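Endoplasmic reticulum (ER) chaperones and genes of the unfolded protein response were followed in pro-B cells, the bone marrow precursors in which heavy chain rearrangement takes place. The set held 32 genes, chosen by name: chaperones, lectin chaperones, protein disulfide isomerases, ER-associated degradation factors, subunits of the SEC61 translocon, and the stress sensors and their transcription factor. Each of the 32 symbols stood on 1 of the 54752 gene identifiers in the tables, and all 32 were among the 13539 genes tested. The cells were sorted by flow cytometry from adult C57BL/6 mice, all of which carried the floxed allele Skiv2lfl/fl. There were 3 mice with the genotype Skiv2lfl/fl (control) and 3 with Skiv2lfl/fl-Cd79a-Cre (Skiv2l-deleted), with 1 library per mouse. Cd79a-Cre is active from the start of the B lineage. Only the Skiv2l-deleted mice are labelled as carrying Cre, so effects of Cre and of the deletion cannot be told apart.

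Proteins that enter the secretory pathway fold in the ER with the help of BiP (Hspa5) and other chaperones, and those that fail are drawn back into the cytosol and degraded. When unfolded protein accumulates, the sensors IRE1 (Ern1), ATF6 and PERK raise chaperone and degradation genes, through spliced XBP1, cleaved ATF6 and ATF4. In the B lineage this program is best known from plasma cells, where XBP1 supports antibody secretion. The product of Skiv2l is the RNA helicase of the SKI complex, which threads messenger RNA into the cytosolic exosome. IRE1 also cuts other messenger RNAs, and the SKI complex with the exosome is among the activities that clear such fragments.

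Few of these genes differed by genotype, at a share close to that of all genes. Of the 32 members, 1 rose in Skiv2l-deleted cells, the lectin chaperone gene Canx, and 2 fell, the ubiquitin ligase gene Syvn1 and the mannosidase-related gene Edem3, by limma on log2(FPKM + 1) with Benjamini-Hochberg adjustment below 0.05. FPKM is a level scaled to transcript length and library size. Those 3 of 32 members (9.38%) compare with 8.84% of all genes tested, and with 4.97% called higher and 3.87% called lower. An unadjusted limma p under 0.05 was reached by 8 of the 32 members and by 3463 of the 13539 genes tested. The median log2 fold change, Skiv2l-deleted minus control, was 0.18 over the members and 0.06 over all genes tested. Above 0 lay 23 of 32 members (71.9%) and 57.8% of all genes tested. The groups did not overlap in 8 members, 5 of them higher (Canx, Pdia3, Sec61a1, Dnajb9 and Ern1) and 3 lower (Edem3, Syvn1 and Atf6). Among all genes tested 19.9% were higher and 12.3% were lower without overlap. For 28 of the 29 members that did not pass, the 95% confidence interval on log2(FPKM + 1) lay within a 2-fold change in either direction. On that scale Manf was the exception, with an interval of −0.50 to 1.22. The scale understates changes of low genes. For Ern1, at a control mean of 2.68 FPKM, the interval of −0.07 to 0.83 does not exclude a 2-fold change in FPKM. In RNA from whole sorted populations, fewer cells of a type and less RNA per cell cannot be told apart.

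**Figure D1:**
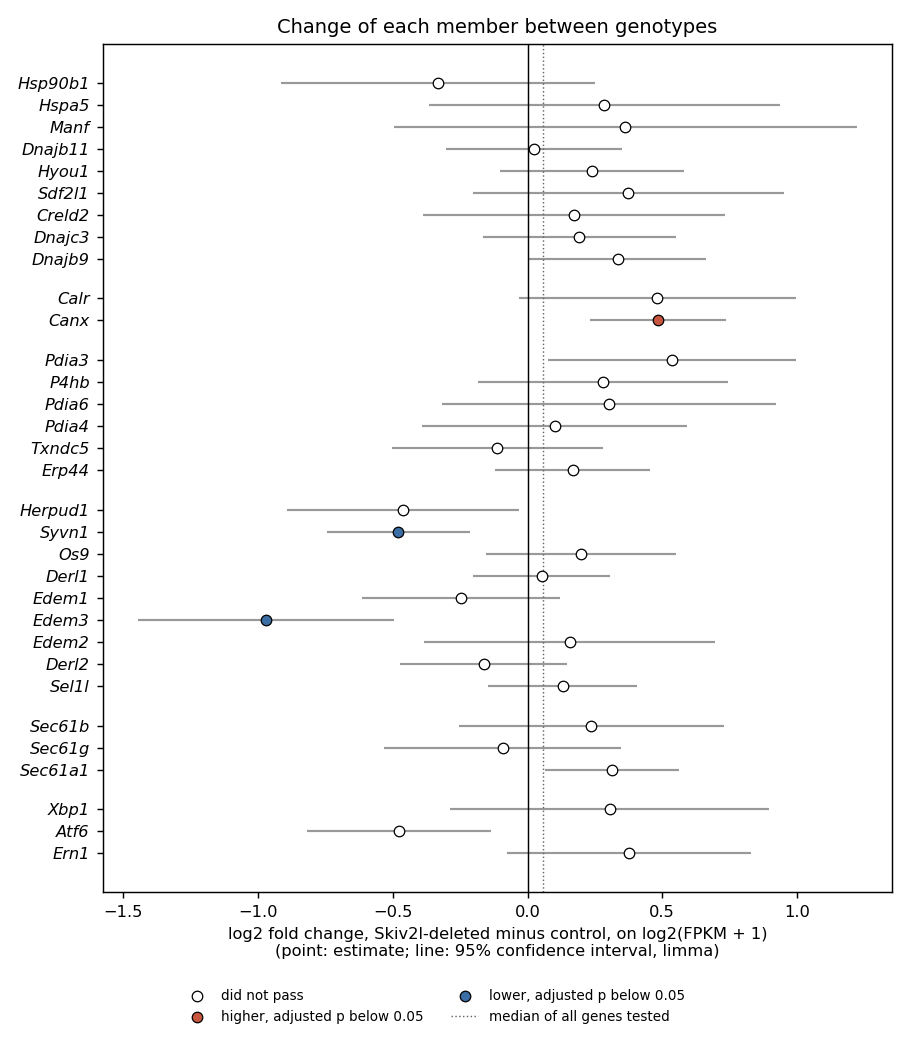
Log2 fold change of each of the 32 members, Skiv2l-deleted minus control, on the log2(FPKM + 1) scale (point) with its 95% confidence interval from limma (line), ordered by role and level. Filled points passed the threshold: Canx at 0.48, Syvn1 at −0.48 and Edem3 at −0.97.

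Depth came to between 1.74 and 2.40 Gb of aligned sequence per library, and 12975 to 13738 genes reached 1 FPKM. Skiv2l was lower in each Skiv2l-deleted library (9.53 to 16.1 FPKM) than in each control (20.2 to 46.3), a difference that missed the threshold (log2 fold change −1.21 ± 0.32 SE, limma adjusted p = 0.063). All 10 pro-B markers checked were present in the 6 libraries, the lowest being Kit at 3.28 FPKM in control 2. They also differed by genotype: 5 rose (Kit, Dntt, Vpreb1, Igll1 and Rag1) and 0 fell, with summed levels of 2262 to 3285 FPKM in controls and 3938 to 4932 after deletion. The T cell gene Cd3e did not exceed 0.106 FPKM. Of the 8 T and NK cell markers 2 were tested and 1 rose, Klrb1c, from 2.43 to 3.61 FPKM in controls to 9.15 to 12.4, and the other, Nkg7, reached 30.2 FPKM in Skiv2l-deleted 2. Of 6 plasmacytoid dendritic cell markers 2 were tested and 1 rose, Cox6a2. Cd79a, the gene of the Cre driver, fell from 702 ± 53.8 to 392 ± 42.5 FPKM (SD, 3 mice each, limma adjusted p = 0.0123). Control 3 and Skiv2l-deleted 2 stood apart. Mpo, the myeloperoxidase gene of early granulocytes, stood at 343 FPKM in control 3 and 641 in Skiv2l-deleted 2, against 4.30 to 8.99 in the other 4 libraries. The summed level of 10 neutrophil and myeloid markers was 1312 and 2300 FPKM in those libraries and 76.0 to 504 in the others. Elane, Lyz2 and Csf1r were also highest in that pair. Ngp and Ltf were higher in control 2 and Skiv2l-deleted 1, Ngp at 58.3 and 49.6 FPKM against 25.2 and 29.7 in the pair. S100a9, like S100a8 and Camp, was high in all 4 of these libraries, at 217 and 165 FPKM against 177 and 243. Omitting control 3 and Skiv2l-deleted 2 therefore leaves neutrophil markers in control 2 and Skiv2l-deleted 1. Skiv2l-deleted 2 also held 7 erythroid markers at a summed 202 FPKM, against 3.75 to 8.37 in the other 5 libraries. Plasma cell and mature B cell markers differed by genotype as well. Of 12 plasma cell markers 10 were tested, 5 fell and 0 rose, and their summed level was 829 to 992 FPKM in controls against 248 to 328 FPKM after deletion. The 5 that fell were Jchain, Sdc1, Igha, Ighg1 and Ighg2b. Jchain stood at 36.9 to 75.2 FPKM in controls and was listed at 0 to 0.233 FPKM in Skiv2l-deleted libraries. Derl3, Ell2, Slamf7, Irf4 and Tnfrsf13b did not pass. Prdm1 and Tnfrsf17 did not exceed 0.511 and 0.538 FPKM in any library and were not tested. Of 8 mature B cell markers 7 were tested, 5 fell and 0 rose, and their summed level was 357 to 387 FPKM in controls and 202 to 282 after deletion. The part of these cell types and stages in the values below was not tested. Log2 fold changes in the 4 libraries left when control 3 and Skiv2l-deleted 2 are omitted are given for each group of members.

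Promoters of the set were searched for the ER stress response element (ERSE), the site through which ATF6 with NF-Y acts on chaperone genes, because such a site is what many of these genes are known to share. RefSeq sequence (GRCm38.p6) from 250 bases before to 50 after the gene start was at hand for 27 of the 32 members. Hyou1, Derl1, Sec61a1, Manf and Atf6 had none. The ERSE, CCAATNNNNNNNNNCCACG on either strand, matched in 8 of the 27 members and in 39 of 32851 promoters in all (0.119%). The matches are shown in the direction that reads CCAAT first, with the fixed bases in capitals.

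Hspa5: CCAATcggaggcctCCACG
Calr: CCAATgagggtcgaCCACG
Hsp90b1, distal: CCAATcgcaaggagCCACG
Hsp90b1, proximal: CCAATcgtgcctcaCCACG
Canx: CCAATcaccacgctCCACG
Pdia6: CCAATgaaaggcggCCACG
Dnajc3: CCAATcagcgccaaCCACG
Creld2: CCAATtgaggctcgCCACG
Syvn1: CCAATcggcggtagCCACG

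The Calr, Creld2 and proximal Hsp90b1 matches lay on the strand opposite to the gene. The related ERSE-II, ATTGGNCCACG, was found in 12 promoters (0.0365%), among them Herpud1 and Dnajb11, and the XBP1-type sequence TGACGTGG in 222 (0.676%), among them Txndc5. The ATF4-type sequence TGATGCAAT matched 63 promoters (0.192%) and 0 of the 27 members. No match of one motif overlapped a match of another in the members. These are matches of letters, and binding was not measured. The genes that share the ERSE did not move one way. Canx rose, Syvn1 fell, and the other 6 did not pass, with log2 fold changes from −0.33 for Hsp90b1 to 0.48 for Calr. Both calls were lost in most omissions of 1 library, as given below. Whether genes with the element differ from the other members was not tested. The 250 bases before the starts of Canx and Syvn1 are printed because these genes carry the same element and changed in opposite directions, with capitals on its fixed bases. The Canx stretch lies at chr11:50325674-50325923 on the minus strand and the Syvn1 stretch at chr19:6046326-6046575 on the plus strand.

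Canx: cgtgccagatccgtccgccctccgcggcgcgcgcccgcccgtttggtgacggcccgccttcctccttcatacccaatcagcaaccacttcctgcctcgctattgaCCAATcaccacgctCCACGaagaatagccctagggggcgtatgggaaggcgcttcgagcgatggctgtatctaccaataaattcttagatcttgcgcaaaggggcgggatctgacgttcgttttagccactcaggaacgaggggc
Syvn1: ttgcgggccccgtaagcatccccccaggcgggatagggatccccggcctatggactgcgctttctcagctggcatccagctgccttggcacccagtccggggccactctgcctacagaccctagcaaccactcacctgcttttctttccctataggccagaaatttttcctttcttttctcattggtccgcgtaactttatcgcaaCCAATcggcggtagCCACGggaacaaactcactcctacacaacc

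The lectin chaperones calnexin (Canx) and calreticulin (Calr) hold newly made glycoproteins until they fold. Canx lies on chromosome 11 at 50293961 to 50325673 (GRCm38). Its level was 83.9, 100 and 90.05 FPKM in controls 1, 2 and 3 and 134, 127 and 123.005 FPKM in Skiv2l-deleted 1, 2 and 3. All Skiv2l-deleted values exceeded all control values. Canx rose 1.40-fold, from a mean of 91.4 ± 8.27 to 128 ± 5.81 FPKM (SD, n = 3 per group), and by 0.48 ± 0.11 (SE) on the log2 scale (limma adjusted p = 0.0369). The value was also 0.48 when control 3 and Skiv2l-deleted 2 were both omitted, where it missed the threshold (limma adjusted p = 0.0586). Of the 6 omissions of 1 library, the call held without control 3 and was lost in the other 5 (highest limma adjusted p = 0.171). Calr stood at 156, 194 and 232 FPKM in controls and at 251, 352 and 217 FPKM in Skiv2l-deleted libraries, so the groups overlapped at control 3 and Skiv2l-deleted 3. Its log2 fold change of 0.48 ± 0.22 had the size of that of Canx and a larger standard error, and it did not pass (limma adjusted p = 0.224). Across the 4 libraries it was 0.42 (limma adjusted p = 0.111).

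Among 9 chaperones and cochaperones 0 passed (1 at an unadjusted limma p under 0.05), with a median log2 fold change of 0.24 and 8 values above 0. Hspa5, which encodes BiP, the central ER member of the HSP70 family, stood at 122, 160 and 217 FPKM in controls and at 164, 281 and 168 FPKM in Skiv2l-deleted libraries. The highest value of each group came from control 3 and Skiv2l-deleted 2, and the groups overlapped. The log2 fold change was 0.29 ± 0.28 (limma adjusted p = 0.579), with an interval of −0.36 to 0.94. Hsp90b1, which encodes the ER paralog of HSP90 (GRP94), was the member with the highest mean level and the only one of the 9 with a value below 0. It stood at 242, 295 and 393 FPKM in controls and at 222, 328 and 193 FPKM in Skiv2l-deleted libraries (log2 fold change −0.33 ± 0.25, limma adjusted p = 0.464). Manf, the gene of a stress-induced ER factor that binds BiP, had the largest standard error of the set, at 50.4, 40.2 and 72.7 FPKM in controls and 60.9, 116 and 44.8 FPKM in Skiv2l-deleted libraries. Its span holds Rbm15b on the same strand and overlaps Dcaf1 on the other, each at a mean of 19.3 FPKM, so the split of reads between them is uncertain.

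The cochaperone gene Dnajb9, whose product ERdj4 brings BiP to IRE1, was the 1 chaperone gene whose groups did not overlap. It was low, at 6.84, 5.36 and 5.39 FPKM in controls and 7.24, 7.41 and 8.22 FPKM in Skiv2l-deleted libraries, and did not pass (log2 fold change 0.33 ± 0.14, limma adjusted p = 0.188). Dnajb11, which encodes the BiP partner ERdj3, had means of 59.7 ± 8.55 FPKM in controls and 60.6 ± 6.27 FPKM after deletion (SD, n = 3). Its partner Sdf2l1 stood at 26.1 to 39.7 FPKM in controls and 33.5 to 60.1 FPKM in Skiv2l-deleted libraries. The remaining 3 overlapped too. Hyou1, a large HSP70-related chaperone and exchange factor for BiP, stood at 33.2 to 40.2 and 37.2 to 49.8 FPKM. Creld2, a stress-induced ER protein gene, stood at 20.2 to 36.6 and 26.6 to 39.2 FPKM. Dnajc3, the gene of the cochaperone p58IPK, stood at 15.3 to 21.5 and 18.97 to 22.5 FPKM. In the 4 libraries 0 of the 9 passed, and the log2 fold change moved most for Dnajc3, from 0.19 to 0.02, and for Manf, from 0.36 to 0.21. It was 0.24 for Hspa5, −0.37 for Hsp90b1, 0.30 for Dnajb9, 0.27 for Sdf2l1, 0.23 for Hyou1, 0.21 for Creld2 and 0.05 for Dnajb11.

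**Figure D2:**
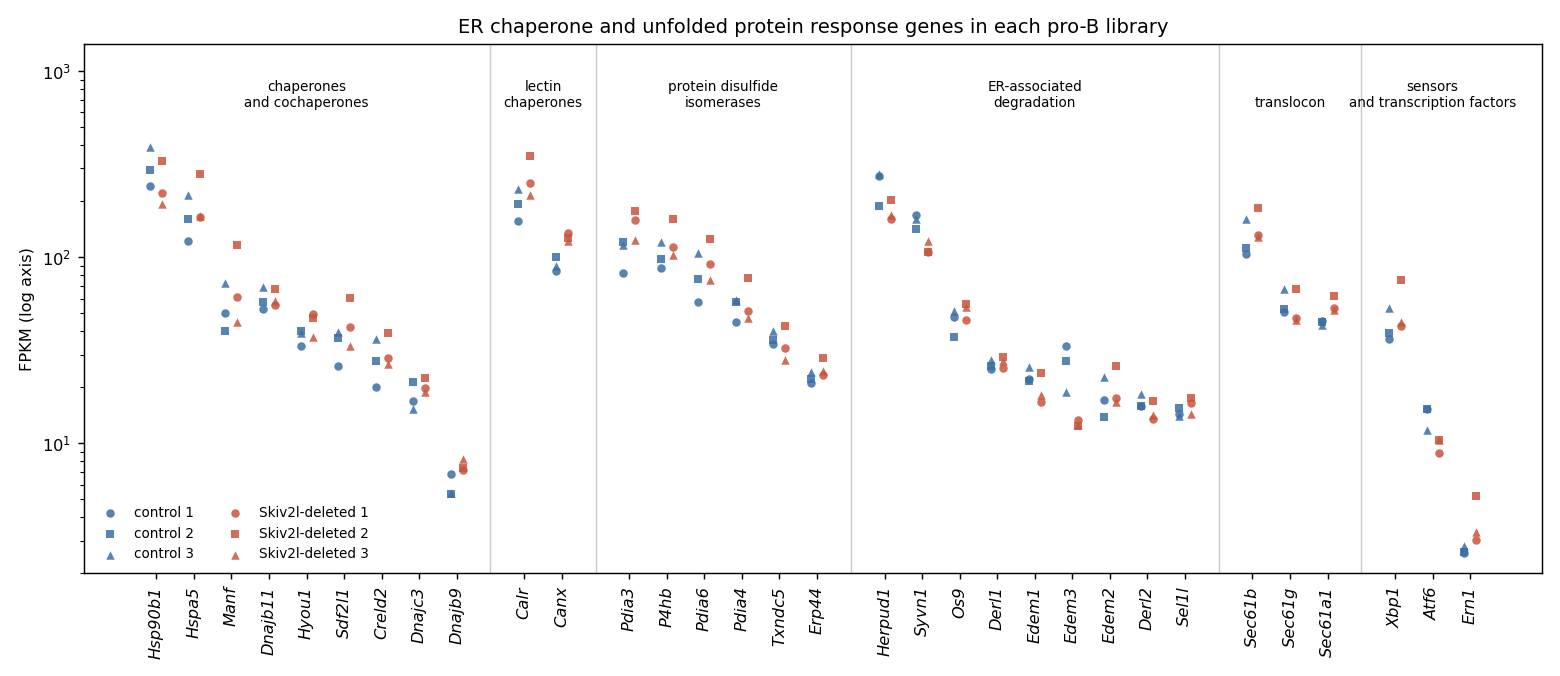
FPKM of the 32 members on a log axis in each of 6 libraries, controls in blue and Skiv2l-deleted in red, with the symbol giving the mouse. Mean levels over the 6 libraries ran from 3.27 FPKM for Ern1 to 279 FPKM for Hsp90b1, and the red square (Skiv2l-deleted 2) is the highest point in 21 of the 32 genes.

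Protein disulfide isomerases form and reshuffle disulfide bonds. Of 6 such genes 0 passed (1 at an unadjusted limma p under 0.05), at a median log2 fold change of 0.22, and all 6 had their highest value in Skiv2l-deleted 2. Pdia3 encodes ERp57, the isomerase that works with calnexin and calreticulin. It stood at 81.9, 121 and 116 FPKM in controls and at 158, 178 and 124 FPKM in Skiv2l-deleted libraries, and the groups did not overlap. Its log2 fold change of 0.54 ± 0.20 was the largest positive value in the set, and it missed the threshold (limma adjusted p = 0.144). With control 3 and Skiv2l-deleted 2 both omitted it was 0.49 (limma adjusted p = 0.191). Pdia6 stood at 57.2 to 106 FPKM in controls and 75.6 to 125 FPKM in Skiv2l-deleted libraries, and P4hb, which encodes the founding isomerase PDI, at 87.4 to 120 and 102 to 160 FPKM. Pdia4 stood at 44.8 to 59.0 and 47.2 to 77.7 FPKM. Erp44, whose product returns unassembled IgM and oxidases to the ER, stood at 21.2 to 24.3 and 23.4 to 28.7 FPKM. Txndc5 was the 1 isomerase gene with a value below 0, at 34.4 to 40.3 and 28.0 to 42.7 FPKM. In the 4 libraries 0 of the 6 passed. Pdia4 took the other sign there, from 0.10 to −0.04, and the values were 0.33 for Pdia6, 0.22 for P4hb, 0.13 for Erp44 and −0.21 for Txndc5.

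ER-associated degradation held both members that fell. Of its 9 genes 2 fell, 0 rose and 7 did not pass (Herpud1 at an unadjusted limma p under 0.05), with 5 values below 0 and a median log2 fold change of −0.16. Whether this differs from the chaperones was not tested. Edem3, one of the EDEM genes, whose products take part in trimming mannose from misfolded glycoproteins (chromosome 1, 151755371 to 151822051), stood at 33.3, 27.8 and 18.9 FPKM in controls and at 13.3, 12.5 and 12.6 FPKM in Skiv2l-deleted libraries. The 3 Skiv2l-deleted values lay close together and below each control, while the controls spread widely. Edem3 fell by 0.97 on the log2 scale (SE 0.20, limma adjusted p = 0.0312), the largest change in the set, to 0.479 times the control mean. With control 3 and Skiv2l-deleted 2 both omitted it fell by 1.17 (limma adjusted p = 0.0112). Among the 6 omissions the call held without control 3 (limma adjusted p = 0.00639) and was lost in the other 5, up to 0.122 without Skiv2l-deleted 3. Its relatives did not pass. Edem1 stood at 21.7 to 25.7 FPKM in controls and 16.8 to 23.9 FPKM in Skiv2l-deleted libraries (log2 fold change −0.25 ± 0.16, limma adjusted p = 0.383), and Edem2 at 13.8 to 22.7 and 16.6 to 26.0 FPKM (0.16 ± 0.23, limma adjusted p = 0.733).

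Syvn1 encodes HRD1, the membrane ubiquitin ligase at the core of this pathway (chromosome 19, 6046576 to 6053712). It stood at 168, 143 and 160 FPKM in controls and at 107, 106 and 122.7 FPKM in Skiv2l-deleted libraries, without overlap. It fell by 0.48 on the log2 scale (SE 0.11, limma adjusted p = 0.0451) and lost the call in each of the 6 omissions (limma adjusted p from 0.0528 without control 3 to 0.188 without Skiv2l-deleted 1). It also missed the threshold without both control 3 and Skiv2l-deleted 2 (log2 fold change −0.43, limma adjusted p = 0.0817). Syvn1 overlaps Mrpl49, on the opposite strand, by 83 bases, and Mrpl49 fell as well (log2 fold change −0.45, limma adjusted p = 0.0337). How reads over the shared bases were assigned is not known here. Sel1l, the gene of HRD1's obligate partner, did not pass, at 14.1 to 15.4 FPKM in controls and 14.4 to 17.5 FPKM in Skiv2l-deleted libraries (log2 fold change 0.13 ± 0.12, limma adjusted p = 0.55).

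Herpud1, which encodes a scaffold of the HRD1 complex and carries the ERSE-II match, stood at 274, 188 and 279 FPKM in controls and at 160, 203 and 169 FPKM in Skiv2l-deleted libraries. Control 2 lay below Skiv2l-deleted 2, so the groups overlapped, and the log2 fold change of −0.46 ± 0.18 did not pass (limma adjusted p = 0.169). The 3 degradation genes still to be given did not pass. Derl1 and Derl2, which encode derlins of the export channel, stood at 25.05 to 29.2 and at 13.5 to 18.4 FPKM over the 6 libraries. Os9, the gene of a lectin that delivers glycoproteins to HRD1, stood at 37.5 to 51.3 FPKM in controls and 45.9 to 56.2 FPKM in Skiv2l-deleted libraries. In the 4 libraries the log2 fold change was −0.46 for Herpud1, −0.32 for Edem1, −0.19 for Derl2, 0.05 for both Sel1l and Derl1, 0.14 for Edem2 and 0.23 for Os9, and none of these 7 passed.

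The 3 translocon genes encode the channel through which new proteins enter the ER, and 0 passed (1 at an unadjusted limma p under 0.05). Sec61a1, the pore subunit, stood at 45.5, 45.1 and 43.1 FPKM in controls and at 53.3, 61.6 and 52.3 FPKM in Skiv2l-deleted libraries. The groups did not overlap, and the controls lay close together. Its log2 fold change was 0.31 ± 0.11 (limma adjusted p = 0.118) and 0.22 in the 4 libraries (limma adjusted p = 0.152). The small subunit genes overlapped, with Sec61b at 104 to 160 and 128 to 183 FPKM and Sec61g at 50.7 to 67.1 and 45.9 to 67.8 FPKM. Their log2 fold changes in the 4 libraries were 0.26 and −0.14.

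The sensor genes Atf6 and Ern1 differed in sign, and 0 of the 3 genes of this group, with Xbp1, passed (1 at an unadjusted limma p under 0.05). Atf6, the gene of the membrane-bound transcription factor that is cleaved under stress (chromosome 1, 170704674 to 170867771), stood at 15.4, 15.4 and 11.8 FPKM in controls and at 8.86, 10.4 and 10.4 FPKM in Skiv2l-deleted libraries. The groups did not overlap, and control 3 was the control nearest to the Skiv2l-deleted values. The log2 fold change of −0.48 ± 0.14 did not pass with all 6 libraries (limma adjusted p = 0.0906). It passed without control 3 (limma adjusted p = 0.0301) and with both control 3 and Skiv2l-deleted 2 omitted, where Atf6 fell by 0.63 (limma adjusted p = 0.0345). In those 4 libraries 2 of the 32 members passed, Atf6 and Edem3, both lower, against 13.0% of all genes tested. Ern1, the gene of IRE1, had the lowest mean level of the set, at 2.59, 2.61 and 2.82 FPKM in controls and 3.01, 5.23 and 3.35 FPKM in Skiv2l-deleted libraries. The groups did not overlap, and the difference did not pass (log2 fold change 0.38 ± 0.19, limma adjusted p = 0.275). With Skiv2l-deleted 2 and control 3 omitted it was 0.21. Xbp1 stood at 36.4, 39.0 and 53.5 FPKM in controls and at 42.6, 75.9 and 44.8 FPKM in Skiv2l-deleted libraries (log2 fold change 0.30 ± 0.25, limma adjusted p = 0.51). With control 3 and Skiv2l-deleted 2 omitted, its difference was 0.21 (limma adjusted p = 0.194). Gene totals do not separate spliced from unspliced Xbp1, so IRE1 activity cannot be read from this value.

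Much of the variation in the set lay between libraries of 1 genotype. Skiv2l-deleted 2 held the highest value of the 6 libraries in 21 of 32 members, against 19.7% of all genes tested. It held the highest of its group in 27 members, against 42.1% of all genes tested. Control 3 held the highest value among controls in 22 members, against 43.8% of all genes. The members summed to 2009, 2145 and 2633 FPKM in controls and 2209, 2956 and 2064 FPKM after deletion. Control 3 and Skiv2l-deleted 2 are the libraries with the highest summed myeloid marker levels given above. Hspa5 in control 3 was 1.53 times the mean of controls 1 and 2, and in Skiv2l-deleted 2 it was 1.70 times the mean of Skiv2l-deleted 1 and 3. For Xbp1 the ratios were 1.42 and 1.74, and for Manf 1.60 and 2.20. Canx did not share the pattern, with ratios of 0.978 and 0.984, nor did Syvn1, with 1.03 and 0.926. Edem3 went the other way in control 3, at 0.618, and stood at 0.964 in Skiv2l-deleted 2. The median log2 fold change of the members was 0.18 in the 4 libraries without this pair, with 22 of 32 values above 0. Over all genes tested there it was 0.05, with 7220 of 12909 values above 0. Without Skiv2l-deleted 2 alone the median was 0.038 over the members and 0.047 over all genes tested.

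**Figure D3:**
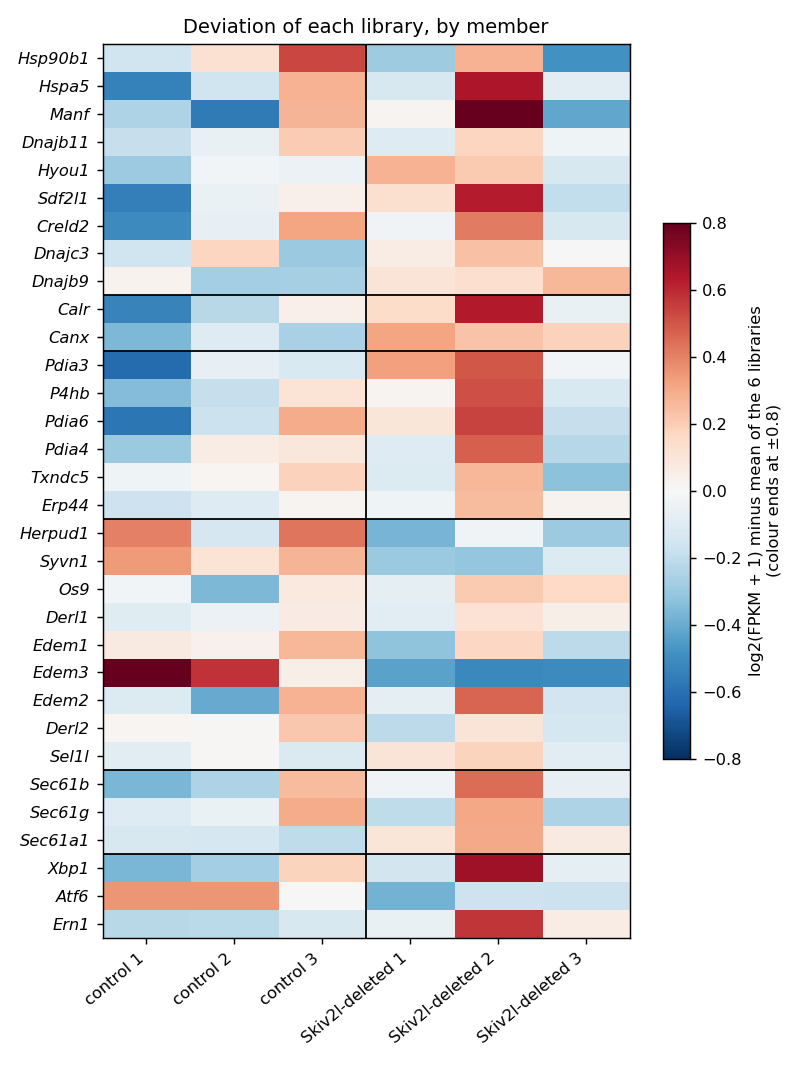
Deviation of each library from the mean of the 6 libraries, on log2(FPKM + 1), for the 32 members in order of role. A red column at Skiv2l-deleted 2 runs through most chaperone and isomerase rows. Control 3 is above the mean in many of them and below it in Hyou1, Dnajb9, Dnajc3, Canx and Pdia3. Edem3, Syvn1 and Atf6 are blue in the 3 Skiv2l-deleted libraries.

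**Figure D4:**
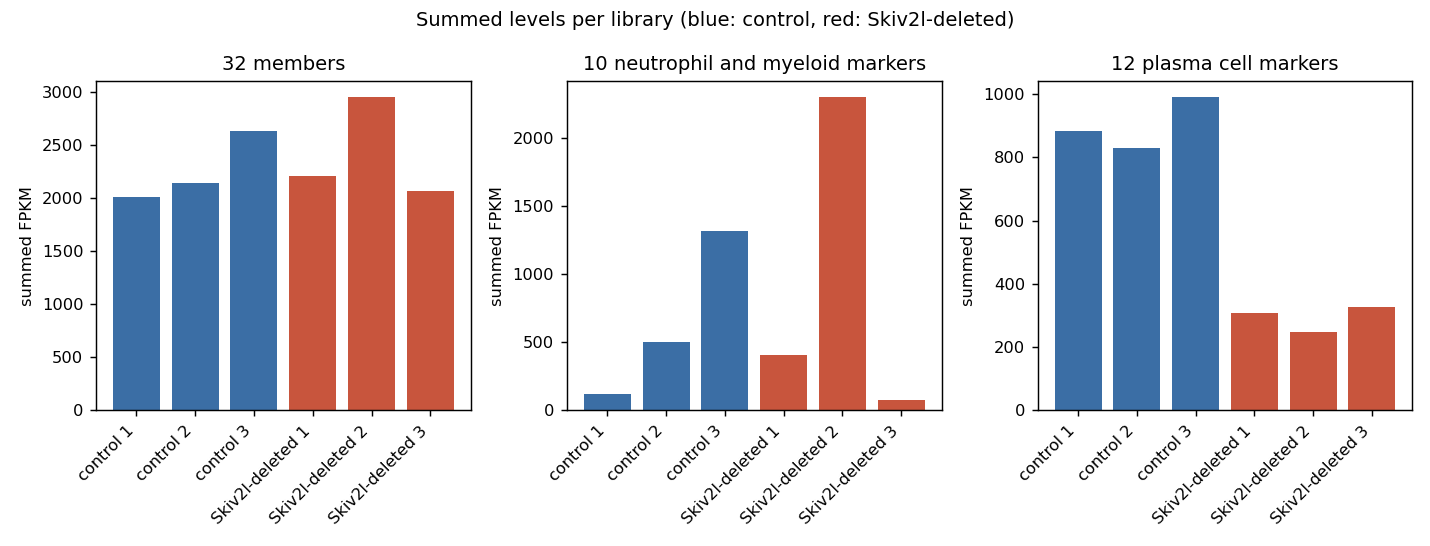
Summed FPKM per library of the 32 members (left), of 10 neutrophil and myeloid markers (middle) and of 12 plasma cell markers (right), controls in blue and Skiv2l-deleted in red. Members and myeloid markers are both highest in Skiv2l-deleted 2 (2956 and 2300 FPKM) and next in control 3 (2633 and 1312), whereas plasma cell markers are higher in each control.

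Calls among neighbouring genes of the ER varied by list, beside 8.84% of all genes tested. Of 21 tested chaperones and oxidoreductases outside the set, 3 rose and 1 fell. That count includes Clgn, which passed the expression filter only through the group in which it is high. It also includes Mzb1, at the edge of the threshold (limma adjusted p = 0.0507 with a pseudocount of 0.1). The count is therefore not read as a larger share than among all genes. Each of the other lists in this paragraph gave at most 1 call with all 6 libraries. Clgn, the gene of calmegin, a calnexin relative known from testis, had a control mean of 0.471 ± 0.0844 FPKM and rose to 3.74 ± 0.535 FPKM (SD, 3 mice each), by 1.68 ± 0.15 (SE) on the log2 scale (limma adjusted p = 0.00429, and 0.031 with no filter on low values). Its controls were all below 1 FPKM, so it entered the test only through the Skiv2l-deleted libraries, in which it is high. Cnpy2 (0.60, limma adjusted p = 0.0398) and the B cell chaperone gene Mzb1 (0.53, limma adjusted p = 0.049997) rose, and the thioredoxin-domain gene Txndc11 fell (−0.79, limma adjusted p = 0.0334). In 20 further degradation genes 1 rose, Ngly1, which encodes the enzyme that strips N-glycans from retrotranslocated proteins (0.55, limma adjusted p = 0.036). In N-glycosylation 1 of 16 rose, the catalytic subunit gene Stt3a (0.43, limma adjusted p = 0.0428), and all 16 values lay above 0 at a median of 0.24. Of all genes tested 57.8% lay above 0, at a median of 0.06. Among 23 translocation and signal peptidase genes 0 passed (8 at an unadjusted limma p under 0.05, beside 3463 of the 13539 genes tested). In the 4 libraries 3 rose and 1 fell, beside 13.0% of all genes tested there called in either direction. Of 12 other sensors, proteases and transcription factors, 1 fell, Rtcb, at 114 ± 11.7 FPKM in controls and 82.6 ± 3.34 FPKM after deletion (SD, 3 mice each, log2 fold change −0.46, limma adjusted p = 0.046). Rtcb encodes the RNA ligase that joins the Xbp1 exons after IRE1 has cut them.

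The PERK and ATF4 arm, which also answers to stresses outside the ER, showed larger values than the set. Of its 11 tested genes 6 rose and 0 fell, beside 4.97% of all genes called higher and 3.87% called lower. The median log2 fold change was 0.91, and the 4 largest were Asns (3.49), Trib3 (2.87), Atf5 (2.54) and Chac1 (2.11). Ddit3, which encodes CHOP and was singled out after its values were seen, rose by 1.07 on the log2 scale (limma adjusted p = 0.0405), with means of 16.3 ± 6.0 and 34.3 ± 4.94 FPKM (SD, 3 mice each). The difference between this arm and the 32 members was not tested. Of 9 genes reported as IRE1 decay targets 4 were tested, and 0 passed (0 at an unadjusted limma p under 0.05). Of 6 ER-phagy receptor genes 0 passed (1 unadjusted). Of 21 cytosolic and mitochondrial chaperones 1 rose, the mitochondrial HSP70 gene Hspa9 (0.70, limma adjusted p = 0.0293). Chac1 (controls 0.119 to 0.190 FPKM), like Clgn, entered the test only through the Skiv2l-deleted libraries, and its limma adjusted p was 0.031 with no filter on low values. Both drop out of the test whenever 1 of those libraries is omitted, so those omissions say nothing about their stability. In the 3 omissions of a control both passed (highest limma adjusted p = 0.0294). Asns, Trib3 and Atf5 passed in all 6 omissions of 1 library. Cnpy2, Mzb1, Ngly1, Stt3a, Rtcb and Ddit3 passed in 1 omission, that of control 3 (highest limma adjusted p = 0.192). Txndc11 and Hspa9 passed in 2, those of control 3 and Skiv2l-deleted 2 (highest 0.139). In the 4 libraries Ngly1 and Stt3a missed the threshold (limma adjusted p = 0.0572 and 0.0509), while Txndc11, Cnpy2, Mzb1, Rtcb, Asns, Trib3, Atf5, Ddit3 and Hspa9 passed, and Clgn and Chac1 did not meet the expression filter.

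**Figure D5:**
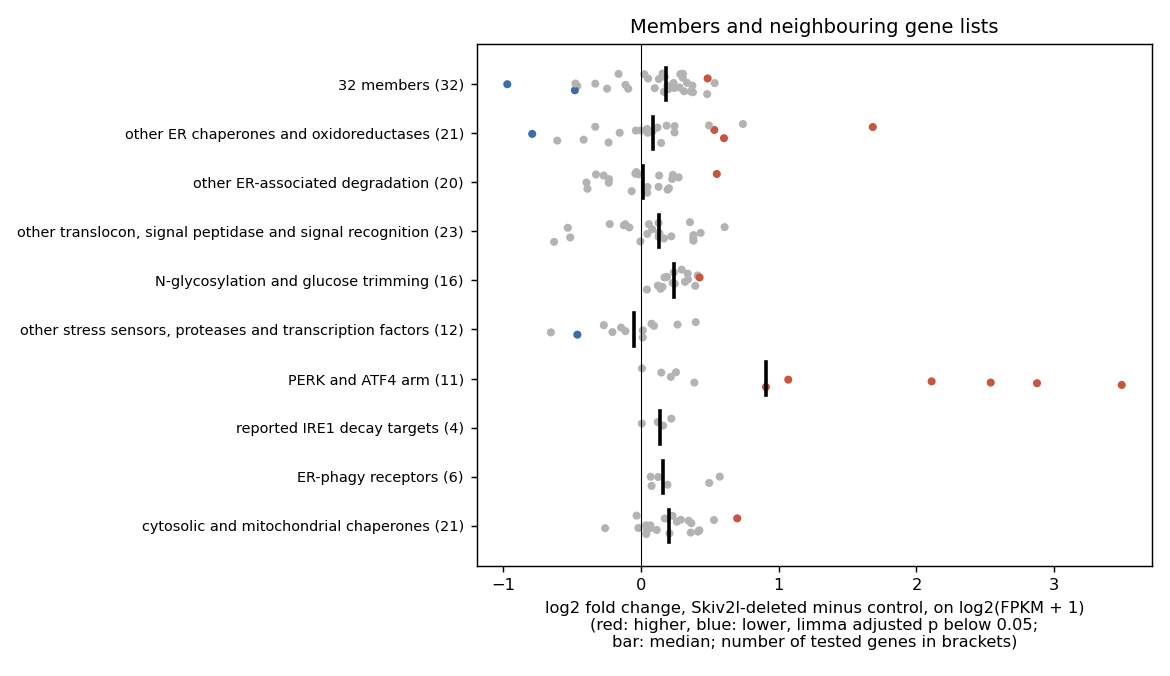
Log2 fold change, Skiv2l-deleted minus control, of the 32 members and of the tested genes in 9 neighbouring lists, with the median as a bar and genes past the threshold in red (higher) or blue (lower). The medians run from −0.05 in the other sensors to 0.91 in the PERK and ATF4 arm, and the members lie at 0.18.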

How the data were processed

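The authors deposited 1 table per mouse with FPKM, TPM and the mean coverage signal of each gene, per the file headers. Strand-specific mRNA libraries were made after silica-column purification, per the labels' protocols. Per the submitters' processing notes, the reference build was GRCm38. No source used here names the aligner, the quantifier or its use of strand. Values of an identifier listed on several lines were summed.

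FPKM was tested as log2(FPKM + 1) with limma 3.58.1 in R 4.3.3 (trend, genotype as the only term) for genes that reached 1 FPKM in 3 or more libraries, with Benjamini-Hochberg adjustment over all 13539. The scale understates changes of low genes. An exact permutation test of 3 against 3 cannot go below 0.1 and was not used for members. Aligned bases were taken from the ratio of coverage to FPKM in genes with 1 transcript in GENCODE M21. On simulated data the fit recovered 24% of genes changed 1.5-fold, 62% changed 2-fold, 96% changed 4-fold and 94% changed 8-fold, 50 each. Among 141 calls 3 were false. The simulated noise was independent between genes and libraries, and no low gene was changed, so these rates need not hold for the data. Members, lists and alternatives were chosen with earlier results of these data known. All members were described. Of each other list the 4 genes with the largest change past the threshold were named, beside Skiv2l. Alternatives covered pseudocount, filter, TPM, scaling, immunoglobulin segments, trend, replicate number and omitted libraries.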

Additional observations from a re-analysis of the deposited data

How the results depend on the processing

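The members' median log2 fold change stayed above 0 in all 17 alternatives (0.04 to 0.28), as did that of all genes tested (0.01 to 0.07). Without Skiv2l-deleted 2 the members' median of 0.038 lay below the 0.047 of all genes tested. Of 543 values of single members, 497 kept their sign and their side of the threshold, and 31 lost a call. Most of the 543 had no call to lose. The 31 losses all came from Canx, Syvn1 and Edem3, the only members called in the main fit. Canx and Syvn1 lost the call in most of the 17 alternatives, and Edem3 in fewer than either. Another 2 values gained a call (Atf6, in the report) and 13 turned sign in 7 members, none of them past the threshold. Dnajb11 turned with median scaling (−0.0254) and ranged from −0.0603 to 0.134 over omissions of 1 library, Creld2 from −0.0393 to 0.37, Pdia4 from −0.11 to 0.24 (−0.0441 without control 3 and Skiv2l-deleted 2), Edem2 from −0.0349 to 0.33, Manf from −0.017 to 0.66, Sec61g from −0.27 to 0.0326 and Txndc5 from −0.27 to 0.0229. Members higher and lower numbered 0 and 0 with no filter on low values, with TPM and with the replicate block, 0 and 1 without the trend, and 0 to 1 and 0 to 2 over the omissions. They were 0 higher with median scaling and without the pair of libraries, and 1 lower with quantile normalization. All genes called numbered 512 with no filter and 179 to 1749 over the omissions. Skiv2l passed with TPM (−1.24), with quantile normalization (−1.24) and without the pair (−1.08). The replicate block gave 365 genes; deviations of same-numbered libraries correlated at 0.0939, −0.429 and −0.355, so the numbers were not taken to pair mice. Called genes were 56.2% higher in the main fit and 48.0% with quantile normalization. With no read counts deposited, counting error could not be given.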
